A study of Mus musculus with 12 samples.

Results

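Ephrins and Eph receptors were examined in ribosome-bound RNA of cortical astrocytes from Fmr1 knockout and wild-type mice. The 10 genes are those of a named set of 5 ephrins (Efna3, Efna5, Efnb1, Efnb2 and Efnb3) and 5 Eph receptors (Epha4, Epha5, Ephb1, Ephb2 and Ephb3), found by symbol among the 52550 features of the count table. All 10 were present once and all 10 passed the filter on low counts, which left 14990 genes. The table also holds the other 12 genes of the family.

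The knockout mice were Fmr1-/y and carried the Aldh1l1-TRAP transgene. The wild-type mice were Fmr1+/y with the same transgene, so an eGFP-tagged ribosome under the astrocyte promoter Aldh1l1 was shared by both groups. All mice were of mixed FVB/C57 background and at postnatal day 40, and each genotype had 3 libraries. TRAP (translating ribosome affinity purification) pulls down tagged ribosomes with an antibody, here from somatosensory cortex with anti-eGFP, and sequences the RNA that comes with them. Fmr1 encodes FMRP, an RNA-binding protein, and was absent from the whole mouse by its genotype label, not from astrocytes alone. Nothing in the labels ties a library to an animal of its own. The p-values therefore speak only for the spread among these 6 libraries, which may be technical.

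Ephrins are ligands held on the cell surface, the A type by a lipid anchor and the B type by a membrane-spanning segment with a short tail inside the cell. Eph receptors are tyrosine kinases that bind them on a touching cell, mostly A with A and B with B, and EphA4 is known to bind both types. Signals run both ways, forward into the cell with the receptor and reverse into the cell with the ephrin. In mouse hippocampus, astrocytic ephrin-A3 and neuronal EphA4 are known for restraining dendritic spines and astrocyte glutamate transporters, and astrocytic ephrin-B1 for regulating synapse number. The design asks whether loss of FMRP changes this RNA in astroglia.

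None of the 10 genes differed between genotypes beyond the spread between libraries. The edgeR quasi-likelihood test, in which Fmr1 itself missed the threshold, called 0 of the 10 and 0 of all 14990 genes (0.0%) at an adjusted p under 0.05. At an unadjusted p under 0.05 it had 0 of the 10, against 265 of all genes (1.77%). Called at an adjusted p under 0.05 were 0 of the 10 and 8 of all genes (0.0534%) with DESeq2, 0 and 9 (0.06%) with edgeR's exact test, and 0 and 0 (0.0%) with limma voom. At an unadjusted p under 0.05 these tools had 0 of the 10, against 1.83%, 1.67% and 2.0% of all genes. The knockout and wild-type libraries overlapped in each of the 10 genes, whereas 929 of all genes (6.2%) had no overlap, 2.95% with the knockout above and 3.25% with it below. The lowest exact permutation p of the 10 was 0.2, and 3 libraries against 3 cannot give less than 0.1.

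Counts per library ran from 10953947 to 21696873 in the knockout and from 19787534 to 22397234 in the wild type. In knockout libraries 14 and 16, 35.6% and 45.1% of counts fell on 3 features known to collect ribosomal RNA reads, against 0.892% in knockout library 18 and 0.939%, 7.45% and 1.75% in wild-type libraries 13, 15 and 17. Leaving both out keeps 1 knockout library and gave 0 calls among the 10 and 0 among all genes (edgeR), so that 0 adds no support. Fmr1 itself, the check of the labels, stood at 4.32, 4.22 and 1.32 CPM (counts relative to library size, TMM-scaled) in knockout libraries 14, 16 and 18, against 31.6, 38.4 and 37.0 CPM in wild-type libraries 13, 15 and 17. Its log2 fold change was -3.53 (SE 0.41), with an adjusted p of 0.29983 in edgeR's quasi-likelihood test. Summed astrocyte markers held 34207 to 42194 CPM in knockout libraries and 34780 to 43614 CPM in wild-type ones, so the defining markers of the labelled cell type were present in every library.

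The members' own counts ran from 31 (Ephb2 in knockout library 16) to 2062 (Epha4 in wild-type library 17) per library. The Ephb2 count of 31 is 4.37 CPM with an exact Poisson 95% interval of 2.97 to 6.196 CPM, and the Epha4 count is 78.9 CPM with an interval of 75.5 to 82.4 CPM. These intervals cover counting error only. Levels were not compared between genes, because CPM is not divided by transcript length and no transcript lengths were used here. In bulk RNA of this kind, fewer cells of a type and less RNA per cell cannot be told apart.

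**Figure D1:**
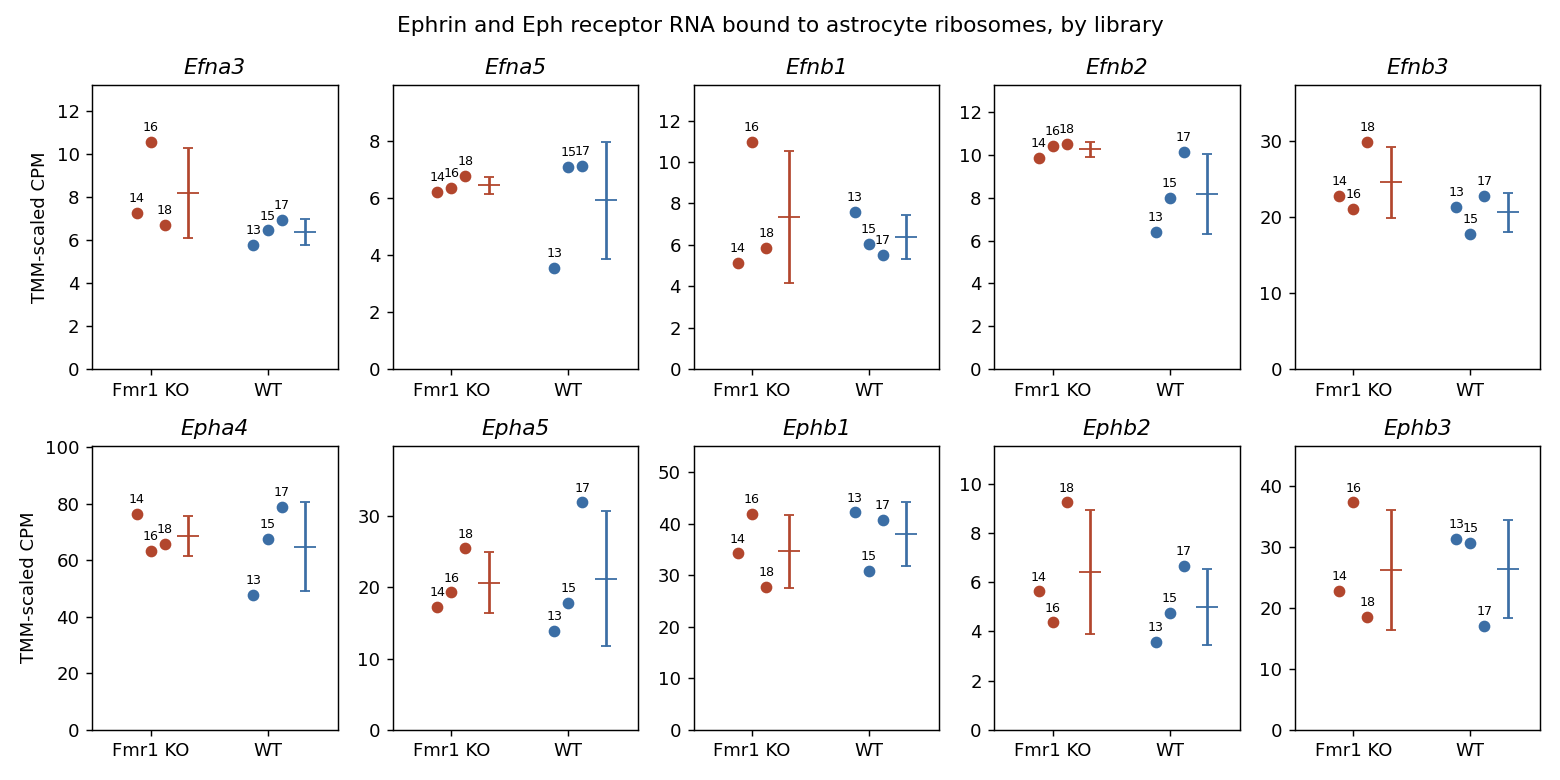
TMM-scaled CPM (vertical axis, from 0, one scale per panel) of the 10 genes in Fmr1 KO libraries 14, 16 and 18 (left in each panel) and WT libraries 13, 15 and 17 (right); points are libraries with their number, and the bar beside them is the mean with SD (n = 3). The libraries of the genotypes overlap in every panel, and WT library 13 is the lowest in 6 of the 10.

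The promoters of 4 members are printed. Efnb2 and Efna3 had the smallest p for genotype, and Efnb1 and Ephb1 ran against the neuron markers across libraries (values follow). Ephb3 had a more negative r with those markers (-0.75), but its window overlaps the annotated Ephb3 gene and is not printed. Each sequence is the 250 bases before the annotated start (RefSeq, GRCm38.p6), and these windows lie outside every RefSeq gene. Capitals mark the CCAAT box and the GC box GGGCGG, both known binding motifs of general promoter factors, and TATAAA, each on either strand.
Efnb2 (chr8:8661243-8661492, minus strand): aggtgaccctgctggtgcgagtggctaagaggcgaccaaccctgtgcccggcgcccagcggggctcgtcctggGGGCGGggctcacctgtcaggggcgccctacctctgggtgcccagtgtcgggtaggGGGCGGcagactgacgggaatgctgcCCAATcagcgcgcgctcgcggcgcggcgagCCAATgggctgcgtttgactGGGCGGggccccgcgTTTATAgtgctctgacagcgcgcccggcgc
Efna3 (chr3:89322940-89323189, minus strand): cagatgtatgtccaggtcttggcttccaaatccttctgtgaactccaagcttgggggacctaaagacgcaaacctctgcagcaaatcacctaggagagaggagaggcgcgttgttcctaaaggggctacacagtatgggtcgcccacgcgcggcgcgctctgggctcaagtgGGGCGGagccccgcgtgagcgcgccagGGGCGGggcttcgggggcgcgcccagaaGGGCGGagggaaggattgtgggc
Efnb1 (chrX:99135811-99136060, plus strand): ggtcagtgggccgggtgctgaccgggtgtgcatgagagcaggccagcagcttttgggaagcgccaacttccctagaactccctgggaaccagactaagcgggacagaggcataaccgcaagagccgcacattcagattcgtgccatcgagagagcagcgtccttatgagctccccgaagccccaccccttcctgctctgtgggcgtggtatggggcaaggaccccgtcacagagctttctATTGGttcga
Ephb1 (chr9:102354694-102354943, minus strand): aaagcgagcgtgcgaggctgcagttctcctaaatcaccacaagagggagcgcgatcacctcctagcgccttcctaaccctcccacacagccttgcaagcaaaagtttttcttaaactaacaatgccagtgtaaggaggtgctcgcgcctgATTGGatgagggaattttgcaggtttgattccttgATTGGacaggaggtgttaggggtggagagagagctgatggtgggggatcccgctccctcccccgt

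The Efnb2 window holds CCAAT at -95 and -65 from the start, GGGCGG at -177, -121 and -45, and the reverse complement of TATAAA at -30. These matches do not overlap each other. The Efna3 window holds GGGCGG at -78, -51 and -23 and no CCAAT. The Efnb1 and Ephb1 windows hold CCAAT only, on the reverse strand, at -10 in Efnb1 and at -100 and -65 in Ephb1.

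Windows were found for 9 of the 10 genes, 10 windows in all. Of these, 5 windows hold CCAAT and 7 hold GGGCGG, against 33.9% and 32.7% of all 32851 promoter windows of the same length. TATAAA occurs in 1 of the 10 and in 12.4% of all. Efna3 has 2 of the windows, each with GGGCGG, so 6 genes hold that box. The second Efna3 window lies inside the annotated gene. A match is a description of the sequence, and binding of any factor was not measured.

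Coordinates below are those of RefSeq genes on GRCm38.p6. Among the A-type ephrins, Efna3 (ENSMUSG00000028039, chr3:89313899-89322939), the gene of ephrin-A3, measured 7.26, 10.6 and 6.69 CPM in knockout libraries 14, 16 and 18, against 5.75, 6.44 and 6.93 CPM in wild-type libraries 13, 15 and 17. Knockout library 16 was the highest, though its Poisson interval (8.31 to 13.2 CPM) overlapped that of knockout library 14 (5.83 to 8.93 CPM), and knockout library 18 lay within the wild-type range. The log2 fold change (knockout over wild type) of Efna3 was 0.34 (SE 0.24), and its 95% interval allowed a fold from 0.866 to 1.86 (exact permutation p = 0.2). Without knockout library 16 it was 0.13, and with the ribosomal RNA share as a term it was 0.056. That share was high only in knockout libraries 14 and 16, so this term is largely confounded with genotype, here and for the genes below. Efna3 lies between Efna1 and Efna4, so 3 A-type ephrin genes are neighbours there.

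Efna5 (ENSMUSG00000048915, chr17:62602957-62881317) encodes ephrin-A5, a ligand known from the mapping of axons onto their targets. It measured 6.199, 6.34 and 6.77 CPM in knockout libraries 14, 16 and 18, against 3.53, 7.07 and 7.12 CPM in wild-type libraries 13, 15 and 17. All 3 knockout libraries lay between the lowest and the highest wild-type library. Its log2 fold change was 0.12 (SE 0.30; fold interval 0.677 to 1.75), and it turned to -0.14 without wild-type library 13, the low one.

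Of the B-type ephrins, Efnb2 (ENSMUSG00000001300, chr8:8617235-8661242) had the smallest p of the 10 genes, 0.170 unadjusted and 0.99998 adjusted in edgeR's quasi-likelihood test. Ephrin-B2 is known as the arterial ligand of EphB4 and is also made by neural cells. Efnb2, whose promoter is printed above, stood at 9.87, 10.4 and 10.5 CPM in knockout libraries 14, 16 and 18, against 6.39, 7.98 and 10.1 CPM in wild-type libraries 13, 15 and 17. Knockout libraries lay close together, 2 of them above every wild-type library and 1 below wild-type library 17. Knockout libraries averaged 10.3 ± 0.351 CPM and wild-type libraries 8.17 ± 1.88 CPM (SD, n = 3 each), with a log2 fold change of 0.33 (SE 0.22) and a fold interval from 0.887 to 1.78. The log2 fold change was 0.18 without wild-type library 13 and 0.51 without wild-type library 17.

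Summed endothelial markers, given here because endothelium is a known source of Efnb2, ran from 11.8 to 21.5 CPM in knockout libraries and from 14.5 to 20.9 CPM in wild-type ones. Of these 12 markers 0 were at 0 in all libraries, but their median level was low (1.06 CPM). The endothelial median rests on the 11 that passed the filter. Efnb2 and the endothelial median had r = 0.23 over the 6 libraries (exact permutation p = 0.667; rho = 0.60, p = 0.242), and r = 0.44 without knockout libraries 14 and 18, the farthest on that list.

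Efnb3 (ENSMUSG00000003934, chr11:69554092-69561150) encodes ephrin-B3, known as a midline barrier ligand of EphA4 for corticospinal axons. It measured 22.8, 21.1 and 29.9 CPM in knockout libraries 14, 16 and 18, against 21.4, 17.8 and 22.8 CPM in wild-type libraries 13, 15 and 17. Only knockout library 18 was above the wild-type range. The log2 fold change of Efnb3 was 0.26 (SE 0.18; fold interval 0.894 to 1.605), and it was 0.09 without knockout library 18, 0.17 without wild-type library 15 and 0.53 with the ribosomal RNA share as a term.

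Efnb1 (ENSMUSG00000031217, chrX:99136061-99149022), the gene of ephrin-B1, measured 5.14, 11.0 and 5.84 CPM in knockout libraries 14, 16 and 18, against 7.58, 6.04 and 5.51 CPM in wild-type libraries 13, 15 and 17. Knockout library 16 held the highest value and knockout library 14 the lowest, so the knockout range enclosed the wild-type range. Its log2 fold change of 0.17 (SE 0.32; fold interval 0.679 to 1.88) turned to -0.21 without knockout library 16.

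All 5 ephrins thus had a positive log2 fold change, with a median of 0.26, while 49.6% of all tested genes were positive and the median of all genes was -0.0019. Of the 5, 2 changed sign when 1 library was left out, and the values share the same libraries, so the count is not a test.

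Epha4 (ENSMUSG00000026235, chr1:77367182-77515107), whose receptor binds A- and B-type ephrins, measured 76.4, 63.2 and 65.8 CPM in knockout libraries 14, 16 and 18, against 47.8, 67.4 and 78.9 CPM in wild-type libraries 13, 15 and 17. All 3 knockout libraries lay inside the wild-type range. Knockout libraries averaged 68.5 ± 6.99 CPM and wild-type libraries 64.7 ± 15.7 CPM (SD, n = 3 each), with a log2 fold change of 0.08 (SE 0.20; fold interval 0.776 to 1.45). The direction turned without knockout library 14 (-0.0041) and without wild-type library 13 (-0.09).

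Epha5 (ENSMUSG00000029245, chr5:84054761-84417818) encodes a receptor for A-type ephrins known mainly from neurons. Its levels were 17.2, 19.3 and 25.5 CPM in knockout libraries 14, 16 and 18, against 13.9, 17.8 and 31.95 CPM in wild-type libraries 13, 15 and 17. Wild-type libraries 13 and 17 held the lowest and the highest value, so both extremes fell in 1 genotype. The log2 fold change was -0.03 (SE 0.31; fold interval 0.597 to 1.603), and it was 0.08, 0.01 and 0.39 without knockout library 14, knockout library 16 and wild-type library 17.

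The EphB receptors bind B-type ephrins, and EphB2 is known to associate with NMDA receptors at synapses. Ephb2 (ENSMUSG00000028664, chr4:136647536-136836326) measured 5.63, 4.37 and 9.25 CPM in knockout libraries 14, 16 and 18, against 3.58, 4.74 and 6.66 CPM in wild-type libraries 13, 15 and 17. Knockout library 18 was the highest and wild-type library 13 the lowest. Ephb2 had the highest log2 fold change of the 10 genes in this fit, 0.39 (SE 0.35; fold interval 0.75 to 2.27; exact permutation p = 0.6). It was 0.0086 without knockout library 18, 0.20 without wild-type library 13, 0.65 without wild-type library 17 and 0.58 without knockout library 16. With the ribosomal RNA share as a term it was 0.83.

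Ephb1 (ENSMUSG00000032537, chr9:101922128-102354693) encodes a B-type receptor known from the routing of retinal axons at the mouse optic chiasm. It measured 34.3, 42.0 and 27.7 CPM in knockout libraries 14, 16 and 18, against 42.2, 30.8 and 40.8 CPM in wild-type libraries 13, 15 and 17. High and low values occurred in both genotypes. Its log2 fold change was -0.14 (SE 0.19; fold interval 0.668 to 1.24), and 0.0037 without knockout library 18.

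Ephb3 (ENSMUSG00000005958, chr16:21204620-21223309) measured 22.8, 37.3 and 18.5 CPM in knockout libraries 14, 16 and 18, against 31.4, 30.7 and 17.03 CPM in wild-type libraries 13, 15 and 17. EphB3 is a B-type receptor known for axon crossing in the corpus callosum together with EphB2. Ephb3 was high in libraries 16, 13 and 15 and low in libraries 18 and 17, across the genotypes. The knockout mean was 26.2 ± 9.87 CPM and the wild-type mean 26.4 ± 8.09 CPM (SD, n = 3 each; log2 fold change -0.02, SE 0.31; fold interval 0.598 to 1.62). The value was 0.07, 0.18, 0.12 and 0.11 without knockout library 14, knockout library 18, wild-type library 13 and wild-type library 15.

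**Figure D2:**
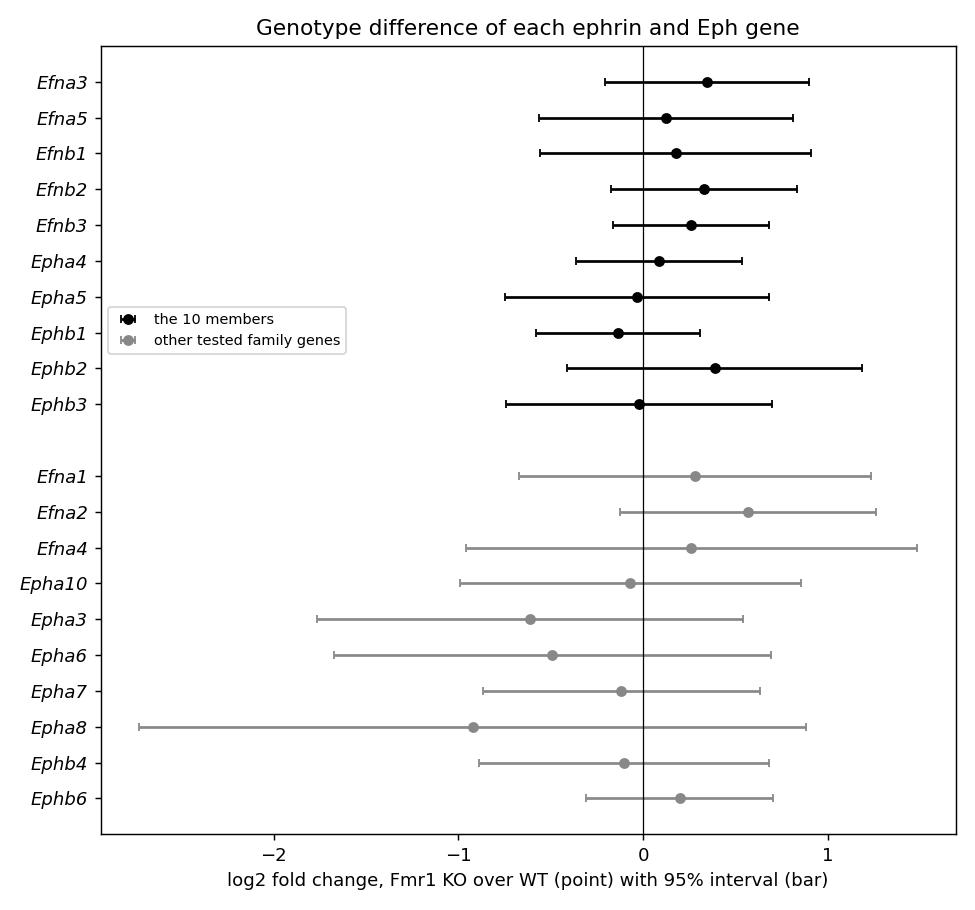
log2 fold change (horizontal axis, Fmr1 KO over WT) of the 10 genes (black) and of the other 10 tested genes of the family (grey), as points with 95% intervals as bars from edgeR's quasi-likelihood fit. Every interval includes 0, and those of the 10 genes span folds from 0.597 to 2.27.

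Over the 10 genes the median log2 fold change was 0.15, with 7 positive and 3 negative. This median was 0.31 without wild-type library 17, 0.23 without knockout library 14, 0.10 without knockout library 18 and 0.26 with the first title number as a covariate. The 95% intervals of the fold ran from 0.597 at the lowest to 2.27 at the highest, and folds inside a gene's own interval are compatible with its values. The log2 values of the 10 genes spread over the 6 libraries with a median SD of 0.34, against 0.27 for all tested genes. The first number in the library titles (5 or 6) splits the libraries: knockout 14 and 16 and wild-type 13 carry 5, knockout 18 and wild-type 15 and 17 carry 6. Within 5, the log2 ratio of knockout to wild-type mean was 0.67 for Efnb2, 0.63 for Efna3, 0.83 for Efna5, 0.55 for Epha4, 0.39 for Epha5, 0.48 for Ephb2 and 0.04 for Efnb3. Within 6, it was 0.22 for Efnb2, 0.0023 for Efna3, -0.07 for Efna5, -0.15 for Epha4, 0.04 for Epha5, 0.70 for Ephb2 and 0.56 for Efnb3. Ephb1 (-0.15 and -0.37), Ephb3 (-0.06 and -0.37) and Efnb1 (0.09 and 0.02) completed the set. Each of these values has 1 library on one side and therefore no error.

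The authors' deposited table lists all 10 genes, with log2 fold changes from -0.15 (Ephb1) to 0.40 (Ephb2). None of the 10 had an adjusted p under 0.05 in the authors' deposited table, the lowest being 0.770 for Efnb3, against 85 of its 14843 features. That table is laid out by entry, and how its test treated the entries of a library was not known here. Its calls are therefore not comparable with those of the summed libraries.

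Some members followed the same libraries up or down. Ephb2 and Epha5 were lowest in wild-type library 13 and high in knockout library 18 and wild-type library 17. Efna5 was also lowest in wild-type library 13, but its other libraries lay close together, from 6.199 to 7.12 CPM. Ephb3 was low in knockout library 18 and wild-type library 17 and high in knockout library 16 and wild-type library 13. Efna3, lowest in wild-type library 13 and highest in knockout library 16, shared neither course. Relative to the mean of the 6 libraries, Ephb2 stood at 0.05, -0.31 and 0.76 log2 units in knockout libraries 14, 16 and 18 and at -0.59, -0.19 and 0.29 in wild-type libraries 13, 15 and 17. Ephb3 stood at -0.15, 0.56 and -0.45 in those knockout libraries and at 0.31, 0.28 and -0.56 in those wild-type libraries. Wild-type library 13 was the lowest of the 6 in 6 of the 10 genes (Efna3, Efna5, Efnb2, Epha4, Epha5 and Ephb2).

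**Figure D3:**
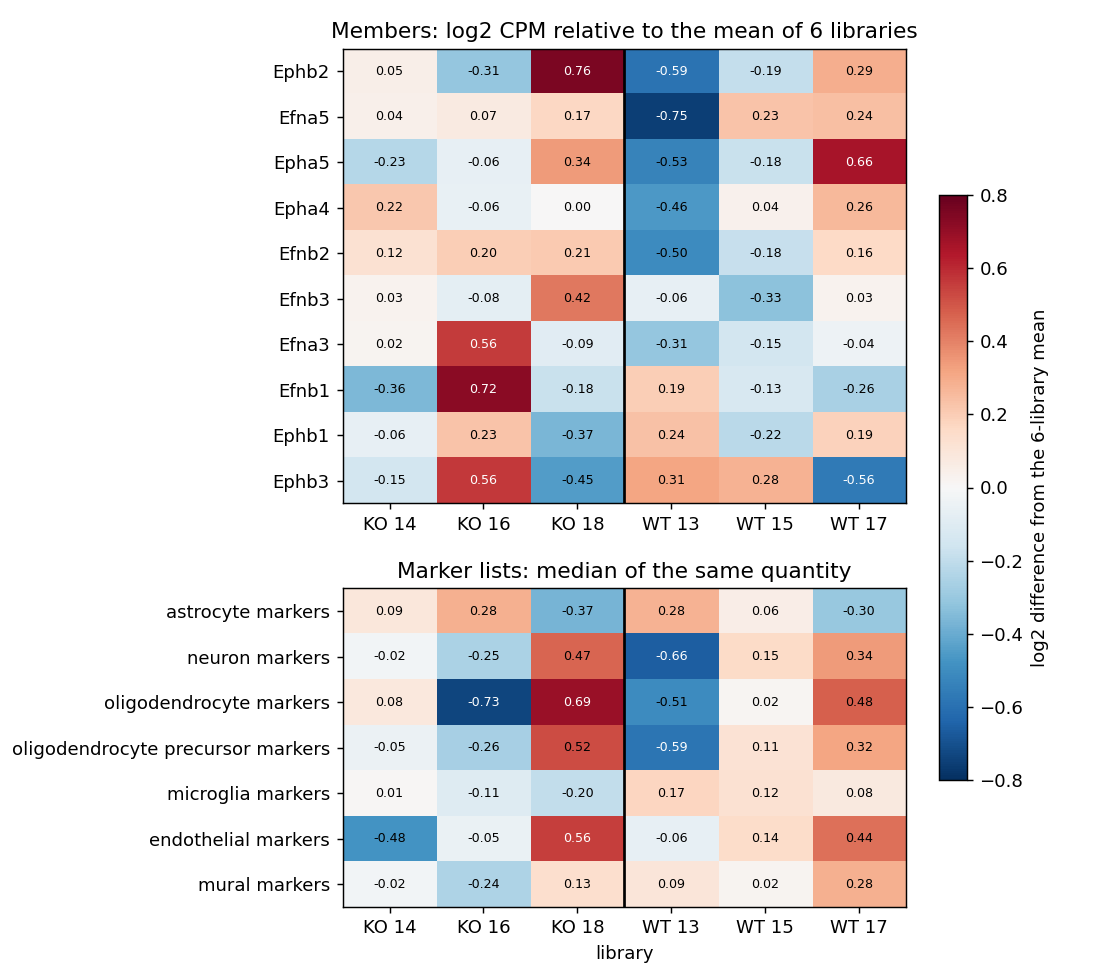
log2 CPM of the 10 genes (upper panel, ordered by their correlation with the neuron markers) and median log2 CPM of the marker lists (lower panel), relative to the mean of 6 libraries (colour and printed value), in KO libraries 14, 16 and 18 left of the line and WT libraries 13, 15 and 17 right of it. The rows at the top of the upper panel run with the neuron and oligodendrocyte lineage rows, and Ephb3 at the bottom runs with the astrocyte row.

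Marker lists of several cell types also varied between libraries. On the same scale the 20 neuron markers had a median of -0.02, -0.25 and 0.47 in knockout libraries 14, 16 and 18, against -0.66, 0.15 and 0.34 in wild-type libraries 13, 15 and 17. Their summed level ran from 2204 to 3154 CPM in knockout libraries and from 1587 to 2995 CPM in wild-type ones, with 0 of the 20 at 0 in all libraries. The 20 astrocyte markers ran almost opposite, at 0.09, 0.28 and -0.37 in knockout libraries 14, 16 and 18, against 0.28, 0.06 and -0.30 in wild-type libraries 13, 15 and 17.

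The oligodendrocyte and precursor medians followed the neuron median over the 6 libraries (r = 0.88 and r = 0.99), and the microglia and mural medians less closely (r = -0.46 and r = 0.44). The 12 oligodendrocyte markers summed to 658 to 1511 CPM in knockout libraries and 724 to 1282 CPM in wild-type ones. The 8 precursor markers summed to 36.0 to 51.3 CPM in knockout libraries and 28.9 to 54.3 CPM in wild-type ones. The 12 microglia markers summed to 59.5 to 69.7 CPM in knockout libraries and 64.5 to 83.2 CPM in wild-type ones, and the 10 mural markers to 51.8 to 71.1 CPM in knockout libraries and 54.6 to 69.5 CPM in wild-type ones. In each of these lists 0 markers were at 0 in all libraries. Of the 10 mural markers 8 passed the filter and entered the median, and the list's median level was low (1.3 CPM). With the microglia median, Efnb2 had the smallest p of the 10 genes (r = -0.78, exact permutation p = 0.05, rho = -0.94, p = 0.0167). With the mural median it was Ephb3 (r = -0.79, exact permutation p = 0.0431, rho = -0.77, p = 0.103). Neither was planned, and neither passed over the 70 relations of 10 genes with 7 lists (exact permutation, adjusted p = 0.25 and 0.247). Relations to the neuron median follow for all 10 genes, and to the oligodendrocyte lineage medians for Ephb2 and Ephb3. Whether RNA of these cells entered the members' levels was not tested.

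Of the 10 genes, Ephb2 had the highest r with the neuron markers over the 6 libraries, and the other lists that follow the neuron median gave it values as high. Pearson's r of log2 CPM was 0.90 for Ephb2 (exact permutation p = 0.0181, adjusted over the 10 relations 0.0903) and Spearman's rho was 0.94 (exact permutation p = 0.0167, adjusted 0.167). Efna5 followed with r = 0.86 (exact permutation p = 0.0181, adjusted 0.0903) and rho = 0.77 (exact permutation p = 0.103, adjusted 0.206). Epha5 had r = 0.82 (exact permutation p = 0.0458, adjusted 0.153) and rho = 0.77 (exact permutation p = 0.103, adjusted 0.206). None of the 10 relations passed after adjustment, all tests being two-sided.

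Without wild-type library 13 and knockout library 18, the libraries farthest from the median neuron level, r was 0.77 for Ephb2, 0.84 for Efna5 and 0.66 for Epha5 over 4 libraries. The Poisson intervals of Efna5 all overlapped in those 4. They were 4.88 to 7.76 and 4.62 to 8.48 CPM in knockout libraries 14 and 16. In wild-type libraries 15 and 17 they were 6.07 to 8.19 and 6.13 to 8.22 CPM. Counting error alone thus does not separate the Efna5 values behind r = 0.84. Epha4 had r = 0.76 (exact permutation p = 0.0764, adjusted 0.175; rho = 0.60, p = 0.242) and 0.69 without wild-type library 13 and knockout library 18. For Efnb2 the r of 0.68 (exact permutation p = 0.143, adjusted 0.224; rho = 0.60, p = 0.242) became -0.32. For Efnb3 the r of 0.43 (exact permutation p = 0.379, adjusted 0.421; rho = 0.60, p = 0.242) became -0.01, so both positive values rested on those libraries. Efna3 had r = -0.03 (exact permutation p = 0.958, adjusted 0.958; rho = 0.03, p = 1.00) and -0.84 without them.

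On the negative side, Ephb3 had r = -0.75 with the neuron markers (exact permutation p = 0.0875, adjusted 0.175; rho = -0.83, exact permutation p = 0.0583, adjusted 0.194) and -0.79 without the same libraries. Ephb1 had r = -0.67 (exact permutation p = 0.157, adjusted 0.224; rho = -0.83, p = 0.0583), which became -0.20. Efnb1 had r = -0.59 (exact permutation p = 0.228, adjusted 0.285; rho = -0.54, p = 0.297), which became -0.75. Against the astrocyte markers, a relation added after the data were seen, Ephb3 had r = 0.91 (exact permutation p = 0.0208; rho = 0.89, p = 0.0333) and Ephb2 had r = -0.93 (exact permutation p = 0.00556; rho = -0.89, p = 0.0333). Without knockout library 18 and wild-type library 17, the farthest on that list, r was 0.65 for Ephb3 and -0.77 for Ephb2. With the oligodendrocyte markers, added likewise, Ephb3 had r = -0.93 (exact permutation p = 0.0111; rho = -0.94, p = 0.0167) and Ephb2 had r = 0.91 (exact permutation p = 0.0139; rho = 0.94, p = 0.0167). Without knockout libraries 16 and 18, the farthest on that list, r was -0.87 for Ephb3 and 0.98 for Ephb2. With the precursor markers r was 0.93 for Ephb2 (exact permutation p = 0.0111; rho = 0.94, p = 0.0167) and 0.78 without wild-type library 13 and knockout library 18. These relations did not pass over the 70 relations of 10 genes with 7 lists (adjusted p = 0.182 for each, exact permutation). The neuron and astrocyte medians were themselves related at r = -0.90, so relations to these lists cannot be told apart.

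**Figure D4:**
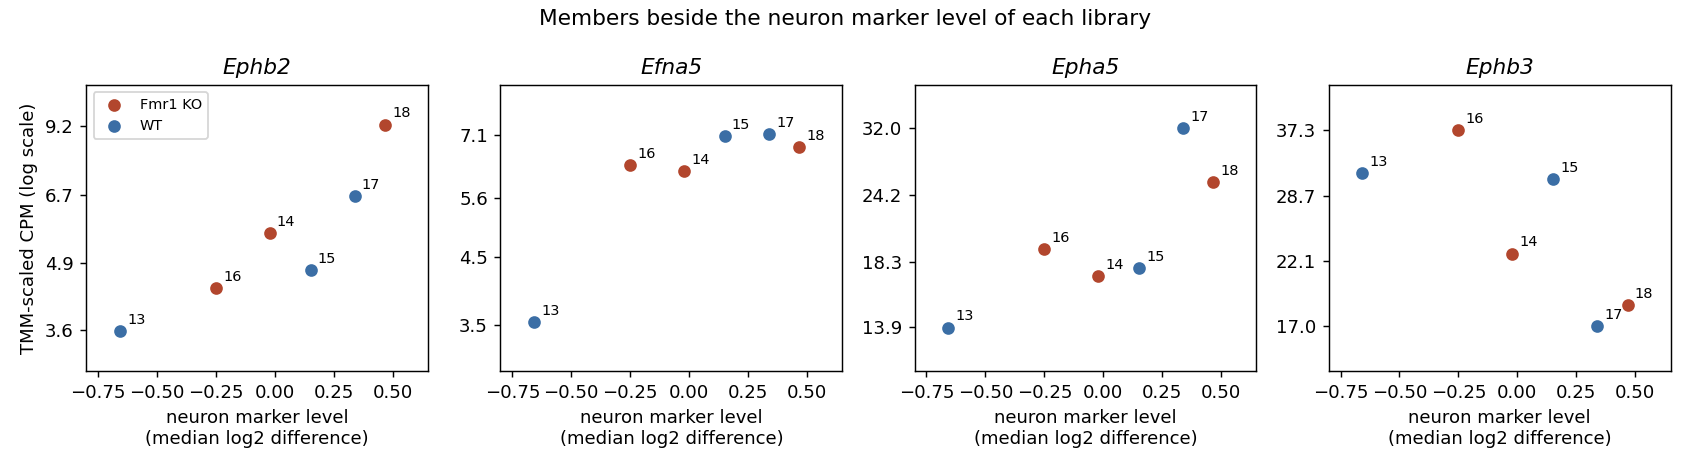
TMM-scaled CPM (vertical axis, log scale) of Ephb2, Efna5, Epha5 and Ephb3 against the neuron marker level (horizontal axis, median log2 difference from the 6-library mean); each point is a library with its number, KO or WT by colour. Ephb2, Efna5 and Epha5 are lowest in WT library 13, which has the lowest neuron level, and Ephb3 is low in KO library 18 and WT library 17, which have the highest.

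No remaining gene of the family passed either: 10 of the other 12 passed the filter and 0 passed the quasi-likelihood test, also at an unadjusted p under 0.05. Their median log2 fold change was -0.09, with 4 positive and 6 negative. Among the A-type ephrins, Efna2 had the smallest p (0.0969) at 4.39 ± 0.992 CPM in knockout libraries and 2.94 ± 0.541 CPM in wild-type ones (SD, n = 3 each; log2 fold change 0.56, SE 0.30). Efna1 averaged 1.75 ± 0.472 CPM in KO and 1.45 ± 0.501 CPM in WT, and Efna4 averaged 2.09 ± 0.922 CPM in KO and 1.69 ± 0.797 CPM in WT.

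Of the A-type receptors, Epha6 stood at 7.42, 7.32 and 7.04 CPM in knockout libraries 14, 16 and 18, against 4.26, 6.40 and 19.9 CPM in wild-type libraries 13, 15 and 17, where library 17 stood far from the others. Epha7 averaged 13.7 ± 3.79 CPM in knockout libraries and 14.9 ± 6.28 CPM in wild-type ones, and Epha10 5.38 ± 2.17 CPM in KO and 5.76 ± 2.43 CPM in WT. Epha3 averaged 1.57 ± 0.899 CPM in KO and 2.53 ± 0.892 CPM in WT, and Epha8 0.490 ± 0.517 CPM in KO and 1.08 ± 0.748 CPM in WT. EphA10 is known to lack kinase activity, as is EphB6. Ephb6 averaged 39.96 ± 7.12 CPM in knockout libraries and 34.98 ± 9.71 CPM in wild-type ones. Ephb4, the venous partner of ephrin-B2, averaged 7.72 ± 3.08 CPM in knockout libraries and 8.15 ± 2.45 CPM in wild-type ones.

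Epha1 and Epha2 did not pass the filter. Epha1 had 2, 3 and 2 counts in knockout libraries 14, 16 and 18, against 0, 2 and 0 in wild-type libraries 13, 15 and 17. Epha2 had 2, 0 and 0 counts in those knockout libraries, against 11, 1 and 2 in those wild-type libraries. A count of 3, the limit that a count of 0 allows, is 0.422 CPM in knockout library 16 and 0.128 CPM in wild-type library 13.

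Genes that act with the receptors and ligands were read from 3 lists. Of 54 genes, 54 were tested, 0 passed in either direction and 0 had an unadjusted p under 0.05 in the quasi-likelihood test, against the 1.77% of all genes given above. Among the 33 genes of forward signalling the median log2 fold change was -0.02, with 16 positive and 17 negative. Arhgef28, a guanine nucleotide exchange factor gene, measured 8.81, 9.72 and 14.0 CPM in knockout libraries 14, 16 and 18, against 19.97, 17.2 and 9.64 CPM in wild-type libraries 13, 15 and 17 (log2 fold change -0.51, SE 0.30). Vav3, another exchange factor gene, averaged 14.6 ± 3.13 CPM in knockout libraries and 17.8 ± 1.76 CPM in wild-type ones (SD, n = 3 each). The kinase genes Limk1 (52.7 ± 7.65 CPM in KO, 47.0 ± 3.47 CPM in WT) and Src (212 ± 9.303 CPM in KO, 191 ± 28.8 CPM in WT) had the smallest p among positive values of that list.

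The 11 genes of reverse signalling had a median of 0.11, with 9 positive and 2 negative, where 49.6% of all tested genes were positive. Rgs3, whose product binds the tail of B-type ephrins, averaged 27.6 ± 3.85 CPM in knockout libraries and 31.1 ± 1.53 CPM in wild-type ones. Pard6b, a polarity protein gene, averaged 1.77 ± 0.483 CPM in KO and 2.43 ± 0.514 CPM in WT. Positive at low levels were the receptor genes Ngfr (0.615 ± 0.417 CPM in KO, 0.294 ± 0.126 CPM in WT) and Ret (0.961 ± 0.356 CPM in KO, 0.582 ± 0.185 CPM in WT).

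The 10 genes of cleavage and dephosphorylation were all negative, with a median of -0.11, where 7550 of all 14990 tested genes were negative. These values share the same libraries, so the count is not a test. Psen2, a catalytic subunit of gamma-secretase, measured 7.59, 8.87 and 7.196 CPM in knockout libraries 14, 16 and 18, against 10.3, 12.2 and 9.57 CPM in wild-type libraries 13, 15 and 17. It was the 1 gene of the 54 whose libraries did not overlap, where 3.25% of all genes lay below the wild type in this way. Its log2 fold change of -0.45 (SE 0.20) had an unadjusted p of 0.0519 and an adjusted p of 0.99998 in edgeR's quasi-likelihood test. Ptpn1, a tyrosine phosphatase gene, averaged 26.5 ± 2.86 CPM in knockout libraries and 30.9 ± 4.77 CPM in wild-type ones.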

How the data were processed

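RNA was measured in 12 deposited entries, which are 6 libraries with 2 entries each. The deposited table holds expected counts per gene, made with RSEM per the file headers and not scaled. The submitters' processing notes name STAR 2.5.3a, RSEM 1.3.0, edgeR and the build mm10 (GRCm38). Libraries came from a stranded kit, per the labels, while how the counting used strand was not given in the sources used here. Reads of genes that overlap a member therefore cannot be told apart. A comparison table deposited by the authors gives log2 fold changes, p-values and adjusted p-values, and a scaled signal per entry that was not used.

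Entries of a library differed by a median chi-square of 0.467 to 0.494 per feature (features with 20 or more counts), with means of 1.17 to 2.33. Between first entries of 2 libraries of 1 group the median was 3.60 to 5.96 in the wild type. In the knockout it was 2.92 for libraries 14 and 16, and 13.0 and 18.7 for each of them with library 18. Scaling was by total counts including the ribosomal RNA features, whose share differs most between those libraries. The entries of a library were summed, rounded and counted as 1 sample. Groups follow the genotype labels. Genes were filtered with filterByExpr, scaled by TMM and tested in R 4.3.3 by edgeR 4.0.16 (quasi-likelihood, 4 residual and 8.24 total degrees of freedom; limma 3.58.1) with Benjamini-Hochberg adjustment over 14990 genes and a threshold of 0.05. SE came from the F statistic. DESeq2 1.42.0, edgeR's exact test and limma voom were alternatives. The procedure was tested on simulated data. Marker levels are medians of log2 CPM with a prior count of 2. Counts per library are given with the results, and intervals on single counts cover counting error only.

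The members and lists were chosen with earlier results of these data known. Named are all family genes, the check gene Fmr1 and up to 2 genes per direction and pathway list by smallest p. Sequences are from RefSeq (GRCm38.p6), matched by symbol for 9 of 10 genes.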

Additional observations from a re-analysis of the deposited data

How the results depend on the processing

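No member passed the threshold under any of 19 alternatives, with a lowest adjusted p of 0.860, and 0 of the 54 pathway genes passed. The lowest adjusted p belonged to Efnb3 and Ephb2 in edgeR's fit with a term for the ribosomal RNA share. That share was high only in knockout libraries 14 and 16 (35.6% and 45.1%), so the term is largely confounded with genotype. Its values therefore rest mostly on knockout library 18 and are not independent of leaving out libraries 14 and 16. The members' median log2 fold change ran from 0.10 to 0.31 when 1 library was left out and from 0.10 to 0.26 otherwise. Calls over all genes were 8 with DESeq2, 9 with edgeR's exact test, 6 with no filter, 1 with that term, 1 with second entries only and 0 to 2 when 1 library was left out.

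Members reached an unadjusted p under 0.05 (edgeR) for Ephb2 with the first title number as a covariate (0.0444), Efnb3 with the ribosomal RNA share (0.0221) and without knockout libraries 14 and 16 (0.0458), and Efnb2 without wild-type library 17 (0.0499).

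Of the 10 members, 4 (Efna3, Efnb2, Efnb3 and Ephb2) kept their direction in all 19 alternatives and 6 did not. The sizes moved: with the ribosomal RNA share as a term Efna3 was at 0.056, Efnb2 at 0.35, Efnb3 at 0.53 and Ephb2 at 0.83, and without libraries 14 and 16 Ephb2 was at 0.91. Leaving out 1 library gave 0.13 to 0.47 for Efna3, 0.18 to 0.51 for Efnb2, 0.09 to 0.36 for Efnb3 and 0.0086 to 0.65 for Ephb2. Epha5 turned to 0.075 with limma voom, 0.21 with the first title number as a covariate, 0.22 with the ribosomal RNA share, 0.034 with first entries only and 0.29 without knockout libraries 14 and 16. Efnb1 turned to -0.17 with the ribosomal RNA share and -0.10 without knockout libraries 14 and 16. Ephb3 turned to 0.013 with first entries only and to 0.056 with the neuron marker level as a covariate, an alternative chosen after seeing the data. For the others these ranges were -0.26 to 0.39 for Epha5, -0.21 to 0.37 for Efnb1, -0.36 to 0.18 for Ephb3, -0.14 to 0.28 for Efna5, -0.094 to 0.25 for Epha4 and -0.29 to 0.0037 for Ephb1. The cause was not tested. Leaving out libraries 14 and 16 leaves 1 knockout library, assumed to vary like the others. The count of relations to neuron markers that passed stayed 0 with RLE size factors and with a prior count of 0.5 in place of 2. No paired analysis was possible because no library number occurs in both groups. The first title number, which occurs in both, was fitted as the covariate above and gave a members' median of 0.26. In the quasi-likelihood test Fmr1 (log2 fold change -3.53) missed the threshold (adjusted p = 0.29983, edgeR), so a count of 0 says little about smaller changes.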
